A study of Mus musculus with 7 samples.

Results

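Macrophages cut and remodel the matrix around them with secreted and membrane-bound proteases, and 9 genes of this system were followed in mouse bone-marrow-derived macrophages (BMDMs). They are the matrix metalloproteinase genes Mmp9, Mmp12, Mmp13, Mmp14 and Mmp19, the tissue inhibitor genes Timp1 and Timp2, and the urokinase pair Plau and Plaur. The genes were chosen as a list of symbols, with earlier results of these data known. All 9 were found among the 48440 genes of the LPS table and among the 55352 genes of the AAV table. All 9 also had a mean value of at least 1 in both tables, the minimum used for comparisons, which 17854 genes of the LPS table and 11218 genes of the AAV table met.

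Matrix metalloproteinases (MMPs) are zinc-dependent enzymes that are made as inactive proforms and cut collagens, elastin and other matrix or cell-surface proteins. Tissue inhibitors of metalloproteinases (TIMPs) bind their active site, and the balance of the enzymes and inhibitors helps to set how much matrix is degraded. Plau encodes urokinase, which turns plasminogen into plasmin, and Plaur encodes the receptor that holds urokinase on the cell surface, where plasmin dissolves fibrin and can activate some proforms of MMPs.

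BMDMs were grown from bone marrow of wild-type C57BL/6 mice for 7 days with macrophage colony-stimulating factor (M-CSF) at 20 ng per mL, and RNA was sequenced in a pair of separate experiments. In the first, cells were left without treatment (0 h) or given lipopolysaccharide (LPS), a bacterial cell wall component that triggers inflammatory gene expression, at 100 ng per mL for 2 h or 4 h. Each time point was a single library. The second used cells that carried, 48 h after transduction, an adeno-associated virus for GFP (AAV-GFP, the control) or Shisa3 (AAV-Shisa3), with 2 samples per group. The study asked how Shisa3, a gene of a transmembrane adaptor protein, acts in macrophages. Both vectors used the ubiquitous CAG promoter and AAV1 capsids, all AAV samples thus carried a virus, and no LPS is given for them in the labels. Mice of both sexes aged 6 to 12 weeks were used in the study. The labels do not say whether the samples of an AAV group came from separate mice or cultures, so the p-values measure only the spread between these samples, which may be technical.

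LPS libraries held 7263258 to 32659392 reads, the shallowest at 2 h, and their values are read counts that the authors divided by 1 factor per library. These values sum to 1.58 times the 0 h total at 2 h and 1.77 times at 4 h, so every fold against 0 h is that much lower when reads are divided by the library total instead (RPM, reads per 1000000). The AAV table was read as TPM, a level per length that sums to about 1000000 in each sample, and its depth is unknown. The introduced gene, Shisa3, was measured at 7.88 and 10.85 TPM in AAV-GFP and at 12.31 and 17.81 TPM in AAV-Shisa3. It was higher in both AAV-Shisa3 samples, with a log2 fold change of 0.63 that missed the threshold of limma's test (Benjamini-Hochberg adjusted p = 0.138). In the LPS libraries its level per length was 0.03 TPM at 0 h, 9.08 TPM at 2 h and 47.7 TPM at 4 h. The paper reports overexpression of Shisa3 mRNA and protein in BMDMs given AAV-Shisa3. Macrophage markers summed to 36665 to 40344 TPM, while those of B and T cells summed to at most 0.47 TPM, with Cd3e, Cd3g and Trac at 0 in the 4 samples. Of 10 macrophage markers 1 rose, the LPS co-receptor gene Cd14 (734.80 and 711.71 TPM against 1199.14 and 1281.86 TPM, adjusted p = 0.0153 by limma), and none fell, with 2 higher and 1 lower by p under 0.05 without adjustment. Fibroblast and stromal markers, another source of MMPs, summed to 18.7 to 26.2 TPM and dendritic cell markers to 2.84 to 3.72 TPM, with ranges that overlapped between the groups, and 0 of their 6 genes tested passed limma's threshold, adjusted or not. Neutrophil markers stood at 609 and 584 TPM in AAV-GFP and at 1118 and 704 TPM in AAV-Shisa3.

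Promoter sequence from RefSeq (GRCm38.p6) was matched for 6 of the 9 genes, with a pair of start sites for Mmp12. Mmp9, Mmp19 and Plau had no window in the promoter set used here. The 250 bases before each start are shown for Mmp13 and Plaur, which were higher in both experiments, for Mmp14, which was higher after LPS and held no match, and for the second start of Mmp12. Capitals mark the AP-1 motif TGANTCA, searched on both strands.
Mmp13, chr9:7272264-7272513, plus strand: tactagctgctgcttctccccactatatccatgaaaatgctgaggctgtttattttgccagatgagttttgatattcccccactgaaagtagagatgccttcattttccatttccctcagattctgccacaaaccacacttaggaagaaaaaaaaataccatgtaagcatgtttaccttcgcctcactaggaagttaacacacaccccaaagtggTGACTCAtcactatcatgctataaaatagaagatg
Plaur, chr7:24462233-24462482, plus strand: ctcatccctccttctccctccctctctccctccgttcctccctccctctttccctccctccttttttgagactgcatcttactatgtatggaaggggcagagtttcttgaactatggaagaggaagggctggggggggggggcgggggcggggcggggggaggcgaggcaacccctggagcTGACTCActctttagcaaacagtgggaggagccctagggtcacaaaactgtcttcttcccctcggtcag
Mmp12, second start, chr9:7347124-7347373, plus strand: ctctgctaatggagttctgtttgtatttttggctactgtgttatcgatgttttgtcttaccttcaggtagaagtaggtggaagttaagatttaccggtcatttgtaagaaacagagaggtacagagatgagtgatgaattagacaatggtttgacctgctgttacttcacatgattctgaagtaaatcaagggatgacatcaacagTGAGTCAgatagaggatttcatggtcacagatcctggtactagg
Mmp14, chr14:54431348-54431597, plus strand: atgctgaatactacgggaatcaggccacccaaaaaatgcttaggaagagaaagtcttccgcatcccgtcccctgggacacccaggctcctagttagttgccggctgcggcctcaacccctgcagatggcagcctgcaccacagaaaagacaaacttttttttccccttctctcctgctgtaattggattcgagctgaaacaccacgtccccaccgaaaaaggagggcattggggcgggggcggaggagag
The motif was found as TGACTCA from 35 to 29 bases before the start of Mmp13, as TGACTCA from 69 to 63 bases before the start of Plaur, and as TGAGTCA from 44 to 38 bases before the second start of Mmp12. It was thus in 3 of the 7 windows, against 6.75% of the 32851 windows of all genes, and was not in the windows of Mmp14, Timp1, Timp2 and the first start of Mmp12. The C/EBP motif TTGCNNAA was in 2 of the 7 windows against 9.56% of all, in Plaur and at the first start of Mmp12. The PU.1-type motif GAGGAA was in the same 2 windows against 23.3% of all. The κB motif was in 1 window, the first start of Mmp12, against 7.25% of all, and the ISRE-type motif in 1 window, that of Mmp13, against 2.98%. No match of 1 motif overlapped a match of another. These matches describe the letters and say nothing of binding.

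The genes lie on 7 chromosomes of GRCm38. Mmp13 (chr9:7272514-7283331) and Mmp12 (chr9:7344381-7369499) are neighbors on the plus strand of chromosome 9, 61.0 kb apart. Plau (chr14:20836660-20843385) and Mmp14 (chr14:54431612-54445364) share chromosome 14. The remaining genes are Mmp9 (chr2:164940780-164955850), Plaur (chr7:24462484-24475968), Mmp19 (chr10:128790910-128800824), Timp2 (chr11:118301069-118355740, minus strand) and Timp1 (chrX:20870166-20874735). Several overlap another gene, and use of strand in counting is not given in the sources used here, so reads of the overlapping stretches cannot be told apart. Mmp19 lies over the antisense gene Gm47093 for 9915 bases, but that gene was at most at 0.05 TPM. Timp1 lies wholly within Syn1 on the opposite strand over 4570 bases, and 789 bases of Mmp19 overlap Tmem198b on the opposite strand. Syn1 was measured at 19.23 and 20.14 TPM in AAV-GFP and at 11.62 and 11.98 TPM in AAV-Shisa3, and Tmem198b at 11.42 and 12.38 TPM against 6.80 and 6.64 TPM, so the values of Timp1 and Mmp19 are uncertain. Syn1 (log2 fold change -0.69, adjusted p = 0.0263 by limma) and Tmem198b (-0.74, adjusted p = 0.0301) both fell. Timp2 shares 10141 bases with Cep295nl, which was at most at 0.65 TPM, and Mmp12 shares 1261 bases with Mmp1b, which was at most at 0.06 TPM.

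AAV-Shisa3 transduced BMDMs had more mRNA of the urokinase receptor gene Plaur and the collagenase gene Mmp13, and less of the urokinase gene Plau, than AAV-GFP transduced BMDMs. Plaur was 2.60-fold and Mmp13 1.6-fold higher, and Plau was 1.77 times lower. In bulk RNA, fewer cells of a type and less RNA per cell cannot be told apart. The test was limma's trended test on log2(TPM + 1), adjusted over all 11218 genes. Thus 2 of the 9 genes rose, against 2.23% of all genes tested, and 1 fell, against 4.1% of all genes. Without the trend none of the 9 was called, and over all genes 1 rose and 4 fell. With each sample centered on its median, 2 of the 9 rose and 0 fell, and over all genes 410 and 230. Both AAV-Shisa3 samples lay above both AAV-GFP samples for 2 genes (18.2% of all genes) and below both for 4 (41.2% of all genes), and the groups overlapped for Mmp14, Timp1 and Timp2. The median log2 fold change over the 9 genes was -0.14, and over all genes it was -0.10.

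**Figure D1:**
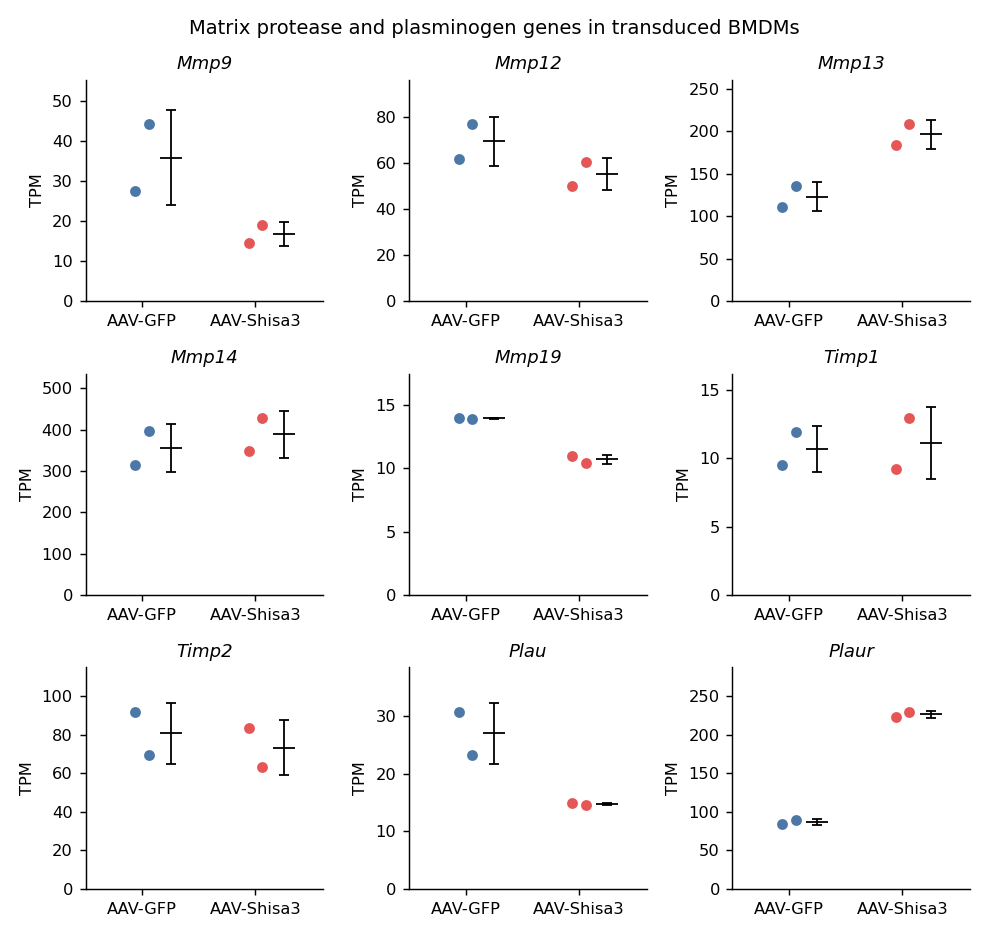
Level in TPM (y axis) of each of the 9 genes in the 2 AAV-GFP samples (blue) and the 2 AAV-Shisa3 samples (red), with the mean ± SD in black (n = 2). Plaur stood at 223.29 and 229.77 TPM in AAV-Shisa3 against 84.23 and 89.15 TPM in AAV-GFP, and the points of Mmp14, Timp1 and Timp2 overlapped.

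Among the 9 genes, Plaur had the largest log2 fold change and the smallest p-value, ranking 2nd by p among all genes tested. Its level was 84.23 and 89.15 TPM in AAV-GFP and 223.29 and 229.77 TPM in AAV-Shisa3, or 86.7 ± 3.48 against 226.5 ± 4.58 TPM (SD, n = 2). The gap between the groups was far wider than the spread within either, with a log2 fold change of 1.38 (SE 0.07, adjusted p = 0.00962 by limma). The ligand gene Plau went the other way. Plau was at 30.77 and 23.29 TPM in AAV-GFP and at 14.86 and 14.59 TPM in AAV-Shisa3, with means of 27.0 ± 5.29 and 14.7 ± 0.191 TPM (SD, n = 2). Both AAV-Shisa3 samples were below both AAV-GFP samples, and the log2 fold change was -0.82 (SE 0.15, adjusted p = 0.0367 by limma). Relative to the median of all genes, which lay at -0.10, the change of Plau was -0.72, and its call was lost when each sample was centered on its own median (adjusted p = 0.0651 by limma).

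Mmp13 encodes collagenase-3, a main interstitial collagenase of mice. It was at 110.84 and 134.88 TPM in AAV-GFP and at 184.17 and 208.24 TPM in AAV-Shisa3, or 122.9 ± 17 against 196.2 ± 17 TPM (SD, n = 2). The groups did not overlap, and the log2 fold change was 0.68 (SE 0.12, adjusted p = 0.0353 by limma). Mmp9, the gene of gelatinase B, stood at 27.41 and 44.20 TPM in AAV-GFP and at 14.58 and 18.95 TPM in AAV-Shisa3. Its log2 fold change, -1.02 (SE 0.24), was larger in size than that of Mmp13, but the adjusted p by limma was 0.0646. With the filter of at least 1 TPM in every sample it was 0.0437, so the call of Mmp9 depends on the filter. Mmp12, the gene of macrophage elastase and the chromosomal neighbor of Mmp13, stood at 61.85 and 77.00 TPM in AAV-GFP and at 50.28 and 60.31 TPM in AAV-Shisa3. That difference (log2 fold change -0.32, SE 0.14) did not pass the threshold (adjusted p = 0.203 by limma).

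Mmp14, whose product sits in the plasma membrane and activates progelatinase A, had the highest level of the 9 genes in all 4 AAV samples. It was at 314.36 and 395.94 TPM in AAV-GFP and at 348.47 and 428.47 TPM in AAV-Shisa3, and the groups overlapped (log2 fold change 0.13, SE 0.15, adjusted p = 0.591 by limma). Mmp19, an MMP that cuts basement membrane proteins, was at 13.99 and 13.91 TPM in AAV-GFP and at 10.96 and 10.45 TPM in AAV-Shisa3. The samples within each group were close, but the log2 fold change of -0.35 (SE 0.11) had an adjusted p of 0.105 by limma. Without adjustment, 2 of the 9 genes were higher (8.21% of all genes) and 3 lower (19.8% of all genes) at p under 0.05. The latter were Plau, Mmp9 and Mmp19. With each sample centered on its median, 2 were higher and 2 lower, and over all genes 1650 and 1182 instead of 921 and 2216. Mmp19 then had an unadjusted p of 0.0659 by limma.

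Neither inhibitor gene changed by limma's test, with 0 of the 2 also by p under 0.05 without adjustment. Timp1 was at 9.52 and 11.90 TPM in AAV-GFP and at 9.25 and 12.96 TPM in AAV-Shisa3, with a log2 fold change of 0.04 (SE 0.19, adjusted p = 0.911 by limma). Timp2, which inhibits MMPs and also takes part in the activation of progelatinase A by Mmp14, was at 92.01 and 69.59 TPM against 83.51 and 63.15 TPM, with a log2 fold change of -0.14 (SE 0.18, adjusted p = 0.648 by limma). With 2 samples per group the standard errors of both are as large as these differences, so changes of this size were not detectable.

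In AAV-GFP the order of levels in TPM, which are per length, ran from Mmp14 over Mmp13, Plaur, Timp2, Mmp12, Mmp9, Plau and Mmp19 to Timp1. The ranges of Plaur and Timp2, of Timp2 and Mmp12, and of Mmp9 and Plau overlapped, and the other neighbors in this order did not. In AAV-Shisa3 both samples had more Plaur than Mmp13, so that Plaur took the second place behind Mmp14. The samples of Mmp9 and Plau then overlapped, at 14.58 to 18.95 and 14.59 to 14.86 TPM, as did those of Timp1 and Mmp19.

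The calls depended on few samples and on the model of the variance. Leaving out either AAV-GFP sample took the adjusted p of Plaur to 0.127 (without replicate 1) or 0.0924 (without replicate 2), whereas leaving out an AAV-Shisa3 sample gave 0.0265 (without replicate 1) and 0.0225 (without replicate 2). For Mmp13 and Plau, leaving out any of the 4 samples gave an adjusted p by limma of 0.0966 to 0.156 and of 0.126 to 0.152, so neither was called. Neutrophil markers moved with the group: Camp (13.57 and 13.88 TPM against 40.19 and 24.74 TPM, adjusted p = 0.0422) and Ngp (47.85 and 51.61 TPM against 123.71 and 83.21 TPM, adjusted p = 0.0378) rose by limma. Of the 12 markers, 10 were tested, 2 rose and none fell by limma, with 5 higher and 0 lower by p under 0.05 without adjustment. Both AAV-Shisa3 samples lay above both AAV-GFP samples for 9 of the 10 (18.2% of all genes) and below both for none (41.2% of all genes). The median log2 fold change of the 10 was 0.81. The defining marker Ly6g was at 0.10 to 0.29 TPM in all 4 samples, with Cxcr2 at 0.14 to 0.24 TPM. Their part in the changes of Plaur, Mmp13 and Plau was not tested.

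After LPS, 2 MMP genes stood out by the size of their folds. Relative to 0 h, Mmp13 was 82.6-fold higher at 2 h and 208-fold higher at 4 h, and Mmp14 was 41.7-fold and 87.1-fold higher. Plaur peaked at 2 h, Timp1 was higher at both times, and Plau was lower at both. With 1 library per time point these differences have no replicate check, and genes are counted as higher or lower from 2-fold on the log2(value + 1) scale. At 2 h, 4 of the 9 genes were at least 2-fold higher (20.5% of all genes) and 1 at least 2-fold lower (24.7% of all genes). At 4 h, 5 were higher (22.2% of all genes) and 1 lower (23.6% of all genes). From 2 h to 4 h, 2 were higher (17.9% of all genes) and 3 lower (15.2% of all genes). The median log2 fold change of the 9 genes against 0 h was 0.94 at 2 h and 1.11 at 4 h, and that of all genes -0.05 and -0.04. In RPM, 4 genes were higher (12.8% of all genes) and 3, Plau, Timp2 and Mmp9, lower (44.5% of all genes) at 4 h. In the 0, 2 and 4 h libraries macrophage markers summed to 36391, 25525 and 20327 RPM, and 2 of 10 were at least 2-fold higher and none lower at 4 h (2 and 4 in RPM). Neutrophil markers summed to 694, 729 and 512 RPM, and none of 12 was higher and 2 lower (none and 6 in RPM). Dendritic cell markers summed to 7.83, 9.78 and 19.3 RPM, and 4 of 7 were higher and 2 lower (2 and 3 in RPM), with Ccr7 highest at 20.4-fold from 20 reads. Fibroblast and stromal markers summed to 56.3, 66.6 and 69.7 RPM, and 4 of 10 were at least 2-fold higher at 4 h and none lower (3 and none in RPM), with Pdgfrb, a growth factor receptor gene, highest at 27, 94 and 944 reads. Osteoclast markers summed to 181, 284 and 235 RPM, and 4 of 8 were higher and 2 lower (4 and 3 in RPM). The part of these shifts in the values of the 9 genes was not tested.

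**Figure D2:**
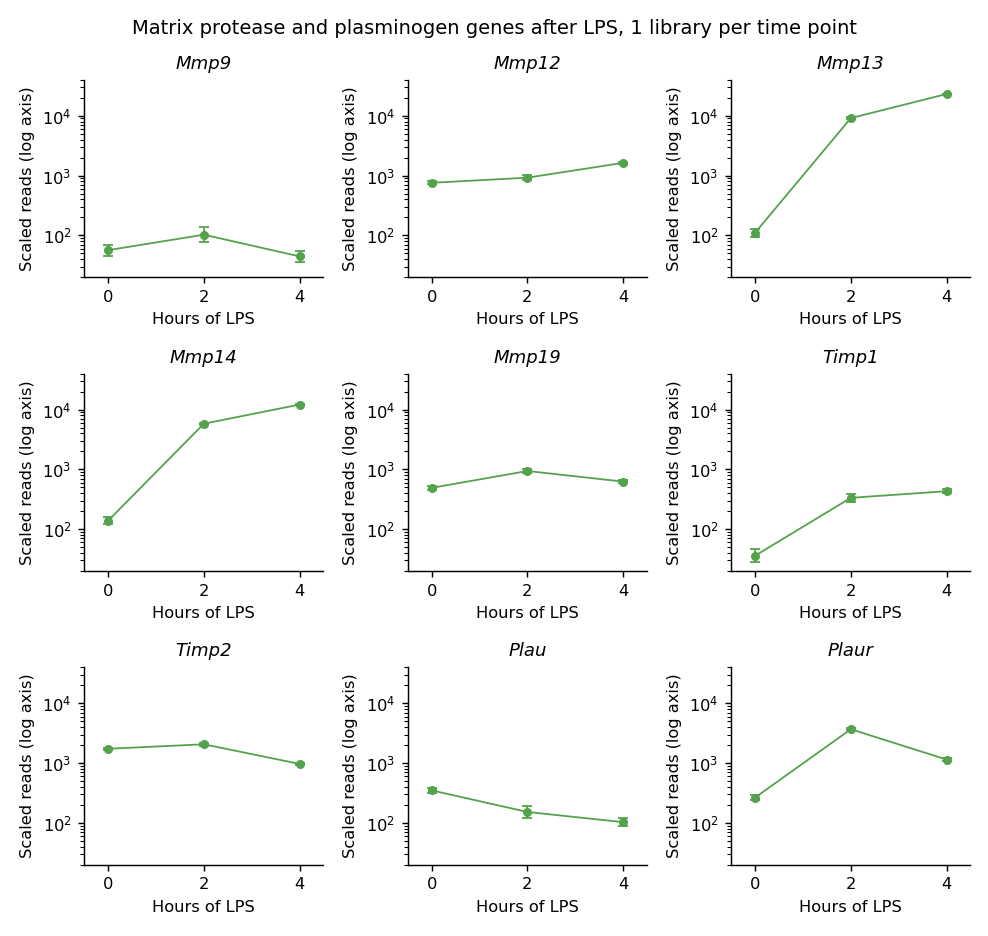
Value of each of the 9 genes (y axis, reads scaled by the authors, log axis) after 0, 2 and 4 h of LPS (x axis), with 1 library per point and 95% Wilson intervals that cover counting error only. Mmp13 and Mmp14 climbed to 23067 and 12104 scaled reads at 4 h, Plaur was highest at 2 h, and Plau was lower at each time after 0 h.

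Mmp13 went from 172 reads at 0 h (value 111) to 4185 reads at 2 h (9139) and 42448 reads at 4 h (23067). The exact 95% interval of the fold, which covers counting error only, was 70.9 to 96.8 at 2 h and 179 to 244 at 4 h. Its fold at 4 h ranked 37 among 17854 genes. Mmp14 went from 216 reads (value 139) to 2654 reads (5795) and 22274 reads (12104), with an interval of 76.2 to 100.1 at 4 h and a rank of 87. Both MMP genes were thus higher at 4 h than at 2 h, by 2.52-fold for Mmp13 and 2.09-fold for Mmp14, although in RPM the latter was 1.87-fold.

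The other 3 MMP genes had no such rise. Mmp12 was at values of 757, 922 and 1630 at 0, 2 and 4 h, from 1177, 422 and 3000 reads. At 2 h it was 1.22-fold the 0 h value on the authors' scale and 0.770-fold in RPM, so its direction at 2 h depends on the scaling. At 4 h it was 2.15-fold higher on the authors' scale (interval 2.01 to 2.31) but 1.22-fold higher in RPM. Mmp9 was at 56.6, 103 and 44.6, from only 88, 47 and 82 reads, which is 1.81-fold the 0 h value at 2 h (interval 1.24 to 2.61) and 0.787-fold at 4 h (0.575 to 1.08), where centering of each library turned its log2 change from -0.34 to 0.033. Mmp19 was at 490, 939 and 625, 1.27-fold the 0 h value at 4 h on the authors' scale and 0.720-fold in RPM, so its direction at 4 h depends on the scaling. Tmem198b, which overlaps Mmp19, had 393, 113 and 240 reads in these libraries, against 762, 430 and 1150 reads of Mmp19.

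The inhibitor genes parted. Timp1, from 56 reads at 0 h to 153 at 2 h and 794 at 4 h, had values of 36.0, 334 and 431. Timp1 was thus 9.27-fold higher at 2 h (interval 6.79 to 12.8) and 12-fold higher at 4 h (9.13 to 16.0). The overlapping gene Syn1 had 16, 6 and 22 reads in the same libraries, fewer than Timp1 in each. Timp2 had values of 1740, 2068 and 972, from 2705, 947 and 1788 reads. At 2 h Timp2 was 1.19-fold the 0 h value on the authors' scale and 0.751-fold in RPM, and it was 0.558-fold the 0 h value at 4 h (0.526 to 0.593), or 0.315-fold in RPM.

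Plaur and Plau moved in opposite directions here as well. Plaur was at values of 266, 3690 and 1151, from 414, 1690 and 2118 reads, 13.9-fold higher at 2 h (interval 12.4 to 15.5) and 4.32-fold higher at 4 h (3.89 to 4.81). Its value at 4 h was 0.312-fold that at 2 h. Plau was at 351, 153 and 103, from 546, 70 and 190 reads, which is 0.435-fold at 2 h (0.334 to 0.559) and 0.294-fold at 4 h (0.248 to 0.347). In RPM the folds at 4 h were 2.44 for Plaur and 0.166 for Plau, so both directions held under either scaling.

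**Figure D3:**
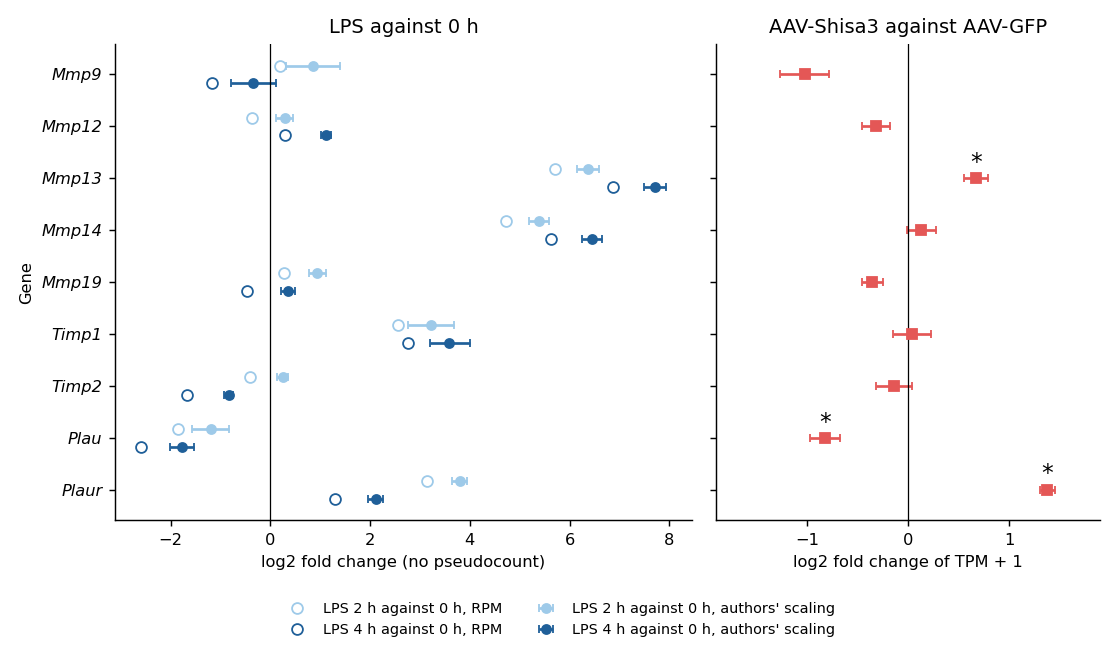
Log2 fold change (x axis) of each of the 9 genes, for LPS against 0 h on the left (1 library per time point, filled circles with exact 95% counting intervals on the authors' scaling, open circles in RPM) and for AAV-Shisa3 against AAV-GFP on the right (n = 2 per group, bars are the SE, an asterisk marks an adjusted p under 0.05). Plaur and Mmp13 lay right of 0 and Plau left of 0 in both panels, while Mmp14, 87.1-fold higher at 4 h of LPS, had a log2 fold change of 0.13 in AAV-Shisa3.

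Per length, with GENCODE M21 gene lengths, Timp2 was the most abundant of the 9 genes at 0 h (99 TPM), ahead of Plau (32.9) and Mmp19 (30.8), and Mmp9 was the least abundant (3.55). The counting intervals of Plau and Mmp19, of Mmp12 (23.2) and Plaur (22.6), and of Mmp13 (9.18) and Timp1 (9.0) overlapped. At 4 h Mmp13 led at 1134 TPM, followed by Mmp14 (267), Timp1 (63.9) and Plaur (57.8), and of the neighbors in that order only Timp1 and Plaur had intervals that overlapped. Of the 5 MMP mRNAs summed, Mmp19 made up 42.8% and Mmp12 32.3% at 0 h, and Mmp13 made up 77.9% and Mmp14 18.3% at 4 h. Mmp12 had more reads at 0 h than Mmp19 (1177 against 762). Its length over all annotated exons was 7237 bases against 3533 for Mmp19. The order and shares thus depend on the lengths used, which the counting intervals do not cover. In the AAV samples Mmp14 made up 57.3% to 59.5%. The share of Mmp13 was 21% and 20.3% in AAV-GFP and 30.3% and 28.7% in AAV-Shisa3, and that of Mmp9 was 5.19% and 6.64% against 2.40% and 2.61%.

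Ratios of a pair of genes within a library do not depend on how libraries are scaled. They do depend on the gene lengths used, which may differ between the LPS and AAV values. Per length, the ratio of receptor to ligand mRNA, Plaur to Plau, was 0.686 at 0 h, 21.8 at 2 h and 10.1 at 4 h of LPS. It was 2.74 and 3.83 in AAV-GFP and 15.0 and 15.7 in AAV-Shisa3, a 4.75-fold difference. The AAV groups did not overlap, which follows from Plaur being higher and Plau lower in both AAV-Shisa3 samples. The exact two-sided permutation p of 0.333 is the smallest that 2 against 2 samples allow, so p under 0.05 could not be reached. For Mmp13 to Mmp9 the ratio was 2.59, 118 and 685 at 0, 2 and 4 h, 4.04 and 3.05 in AAV-GFP, and 12.6 and 11 in AAV-Shisa3 (3.35-fold, exact permutation p = 0.333).

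Enzyme to inhibitor ratios behaved less alike. The ratio of Mmp13 to Timp2 was 0.0927, 6.44 and 34.6 at 0, 2 and 4 h of LPS. It was 1.20 and 1.94 in AAV-GFP and 2.21 and 3.30 in AAV-Shisa3, a 1.76-fold difference without overlap (exact permutation p = 0.333). Mmp14 to Timp2 went from 0.0522 over 1.83 to 8.14 with LPS. It overlapped between AAV-GFP (3.42 and 5.69) and AAV-Shisa3 (4.17 and 6.78; exact permutation p = 0.667). Of the 4 ratios computed, 3 did not overlap between the AAV groups, and none could pass after adjustment for 4 tests. Plaur to Plau and Mmp13 to Mmp9 each set a gene already seen higher in both AAV-Shisa3 samples over a gene seen lower. Their separation therefore adds nothing to the single genes. The share of other gene pairs without overlap was not computed.

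**Figure D4:**
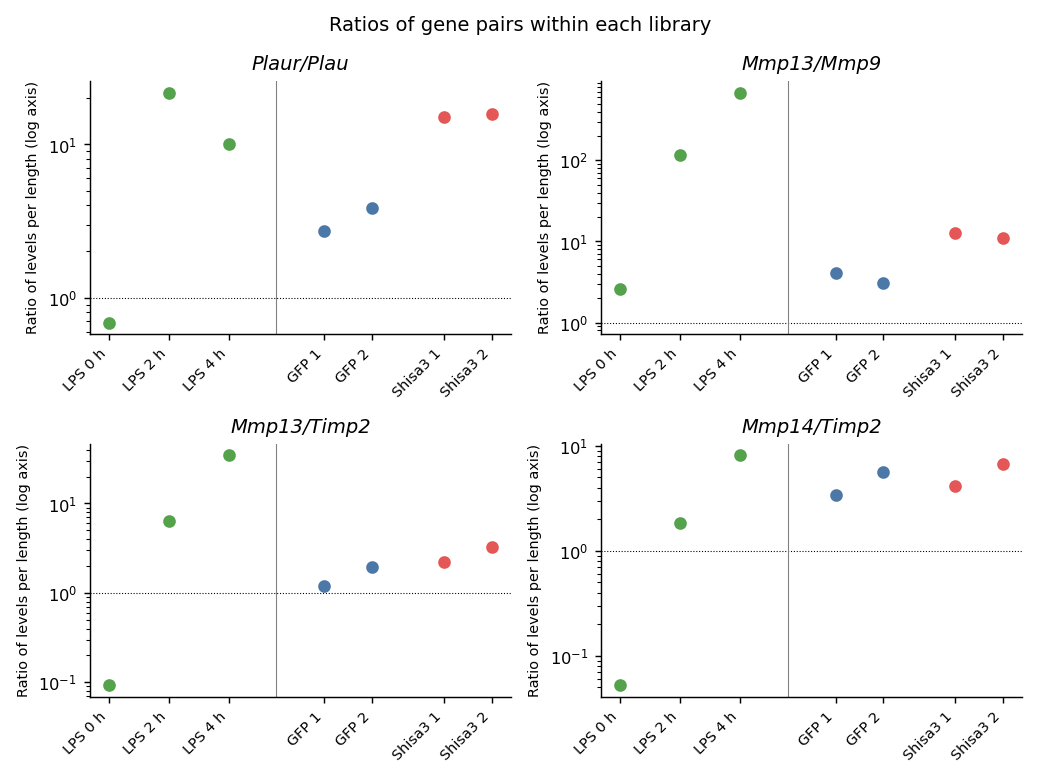
Ratio of the levels per length of a pair of genes (y axis, log axis) in each library, with LPS libraries in green, AAV-GFP samples in blue and AAV-Shisa3 samples in red. Plaur to Plau was 15.0 and 15.7 in AAV-Shisa3 and 2.74 and 3.83 in AAV-GFP, and Mmp14 to Timp2 overlapped between these groups. The gene lengths behind the LPS and AAV values may differ.

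Other genes of the same systems were counted in lists. Counts are by adjusted p under 0.05 with limma for AAV-Shisa3 against AAV-GFP and from 2-fold for LPS at 4 h against 0 h. Over all genes, 2.23% rose and 4.1% fell in AAV-Shisa3, and 8.21% and 19.8% by p under 0.05 without adjustment. At 4 h of LPS 22.2% of all genes were higher and 23.6% lower, and 12.8% and 44.5% in RPM. Each list below is to be read beside these shares. Of 18 other MMP genes, 4 were tested in the AAV samples and none rose or fell by limma (median log2 fold change 0.03), with 0 also by p under 0.05 without adjustment. After LPS, 5 of 9 were at least 2-fold higher and 1 lower, and in RPM 5 and 2. Mmp25, a membrane-anchored MMP, was highest at 24.5-fold, from 38 reads at 0 h to 1104 reads at 4 h. Mmp23 was lowest, with 13, 1 and 5 reads at 0, 2 and 4 h.

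Of 11 further inhibitors and regulators of MMPs, 2 were tested in the AAV samples, 1 rose and none fell by limma, with the same counts of 1 and 0 by p under 0.05 without adjustment. The gene that rose was Furin, the proprotein convertase that cuts the proform of Mmp14, at 30.31 and 36.38 TPM in AAV-GFP and at 58.36 and 62.21 TPM in AAV-Shisa3 (log2 fold change 0.84, SE 0.11, adjusted p = 0.0232 by limma). After LPS, 2 of 4 genes of this list were higher and none lower, with Furin highest at 2.90-fold and Bsg, the gene of the MMP inducer basigin, lowest at 1.31-fold. In RPM no gene of the 4 passed 2-fold.

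Among 21 other genes of the plasminogen system, 11 were tested in the AAV samples, none rose and 1 fell by limma (median -0.07), with 0 higher and 2 lower by p under 0.05 without adjustment. The gene that fell was Thbd, which encodes thrombomodulin, at 12.61 and 12.96 TPM in AAV-GFP and 7.72 and 6.22 TPM in AAV-Shisa3 (log2 fold change -0.80, SE 0.14, adjusted p = 0.0343 by limma). After LPS, 6 of 15 were higher and 2 lower on the authors' scale, but 4 and 4 in RPM. Serpinb2, the gene of an inhibitor of urokinase, was highest, with 36, 936 and 7240 reads at 0, 2 and 4 h and a value 170-fold higher at 4 h. Thbd was lowest, at 0.0907-fold, with 382, 12 and 41 reads. Serpinb2 in the AAV samples was at 9.57 and 16.45 TPM against 9.43 and 11.27 TPM, which overlap.

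The remaining protease lists moved little in the AAV samples. None of 7 ADAM and ADAMTS genes tested rose or fell by limma (median 0.12), with 1 higher and 0 lower by p under 0.05 without adjustment. After LPS 4 of 16 were higher and 4 lower on the authors' scale, but 3 and 7 in RPM. The shares of all genes were 22.2% and 23.6%, and 12.8% and 44.5% in RPM. Adamts4 had 2 reads at 0 h, 271 at 2 h and 329 at 4 h, at least 92.6-fold higher at 4 h against 3 reads. Adam19 was lowest at 0.132-fold. Among 14 cathepsin and cystatin genes tested, none rose and 1 fell by limma (median -0.06), with 1 higher and 4 lower by p under 0.05 without adjustment. Ctsl, the gene that fell, encodes a lysosomal cysteine protease and was at 3307 and 3102 TPM in AAV-GFP and 2410 and 2449 TPM in AAV-Shisa3 (log2 fold change -0.40, SE 0.07, adjusted p = 0.0382 by limma). After LPS, 3 of 16 were higher and none lower on the authors' scale, but 2 higher and 4 lower in RPM, with the cystatin gene Cst7 highest at 32.5-fold, from 19 reads, and Ctse lowest at 0.688-fold.

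Matrix proteins and matrix receptors included 3 genes that rose in AAV-Shisa3 out of 22 tested, and none that fell by limma (median 0.20), with 7 higher and 1 lower by p under 0.05 without adjustment. Tgfbi, a secreted matrix protein gene, was at 88.08 and 67.80 TPM against 219.75 and 188.95 TPM (log2 fold change 1.39, SE 0.14, adjusted p = 0.0174 by limma). Itgb5, an integrin subunit gene, rose by 0.56 on the log2 scale (adjusted p = 0.0443) and Cd44, the hyaluronan receptor gene, by 0.42 (adjusted p = 0.0377). After LPS, 12 of 26 were higher and 3 lower on the authors' scale, but 6 and 5 in RPM, from Vcan at 49.2-fold to Itga6 at 0.356-fold. Tgfbi was 0.493-fold the 0 h value at 4 h of LPS.

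Genes known as NF-κB and AP-1 targets or subunits were measured beside the system as a reference for the LPS response. Of 17 tested in the AAV samples 7 rose and none fell by limma (median 0.53), with 12 higher and 1 lower by p under 0.05 without adjustment. Those that rose were Tnf, Il1b, Nfkbia, Cxcl10, Fosl1, Fos and Junb. Among the subunits, Fosl1 was at 1.73 and 1.61 TPM against 4.4 and 5.88 TPM (log2 fold change 1.19, adjusted p = 0.0292 by limma), and Fos rose by 0.67 (adjusted p = 0.0206) and Junb by 0.55 (adjusted p = 0.0236) on the log2 scale. Jun, the 1 gene lower without adjustment, was at 106.37 and 105.56 TPM in AAV-GFP and at 90.21 and 89.58 TPM in AAV-Shisa3 (log2 fold change -0.23, adjusted p = 0.107 by limma). At 4 h of LPS, 16 of 18 were higher and none lower, and in RPM 15 and none, with Nos2 highest, from 9 to 94656 reads, and Fosb lowest, with 1, 2 and 2 reads.

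Osteoclasts also make Mmp9 and Mmp14, and their markers were followed for that reason. The 9 osteoclast markers summed to 167 and 162 TPM in AAV-GFP and to 155 and 152 TPM in AAV-Shisa3. Of the 5 tested, none rose and 1 fell by limma, with 0 higher and 3 lower by p under 0.05 without adjustment. Nfatc1, the gene that fell, encodes a transcription factor of osteoclast formation (10.79 and 12.34 TPM against 5.6 and 6.37 TPM, log2 fold change -0.85, adjusted p = 0.0301). Acp5, the acid phosphatase gene with the highest level of the list, was at 93.42 and 86.51 TPM in AAV-GFP and at 96.92 and 94.61 TPM in AAV-Shisa3 (adjusted p = 0.492 by limma). Tnfrsf11a, second in level on the list, was at 52.28 and 53.43 TPM in AAV-GFP and at 45.67 and 45.70 TPM in AAV-Shisa3. Ctsk, the gene of the main osteoclast collagenase, was at 8.01 and 7.43 TPM in AAV-GFP and at 4.89 and 3.87 TPM in AAV-Shisa3. Calcr, the calcitonin receptor gene, was at most at 0.04 TPM. The part of these markers in the values of Mmp9 was not tested.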

How the data were processed

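RNA was sequenced as 150 bp paired-end reads. The labels list the build mm9; the aligner, counter, annotation and use of strand are not given in the sources used here. The LPS table, as deposited, holds a signal: each library's read counts were scaled by the authors with 1 common factor, and 100% of the values gave whole reads within 0.001. The AAV table holds numbers that the authors scaled to nearly 1000000 per sample, read here as TPM; that unit is inferred from the sums and not stated.

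All sample columns were used and mapped by the labels. AAV-Shisa3 was compared with AAV-GFP by limma with a trend (eBayes) on log2(TPM + 1), keeping genes whose mean reached 1, Benjamini-Hochberg adjusted, with a threshold of 0.05. The pseudocount of 1 understates changes of low genes. LPS libraries had no test. Reads were given 95% Wilson intervals and folds exact conditional binomial intervals, without molecular identifiers, so both cover counting error only. Folds against 3 reads or fewer were taken as lower bounds against a floor of 3 reads. Levels per length used the length over all annotated exons of a gene in GENCODE M21 (GRCm38). It held 99.2% of the LPS table's identifiers with the version ignored, or 83.8% with the same version, and 96.4% of the AAV table's symbols. The 2 tables were normalized separately, and positions come from GENCODE M21, not from the build in the labels. The κB and ISRE-type motifs were searched by their consensus in promoters.

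The named genes are all 9 members. From the other lists they are those past the threshold and the highest and lowest at 4 h of LPS. Shisa3 is given as the introduced gene. Calcr, Cd3e, Cd3g, Ctsk, Cxcr2, Il12b, Jun, Ly6g, Tnfrsf11a and Trac were added after their values were seen. So were the AAV values of Acp5 and Serpinb2, the LPS values of Shisa3, and the overlapping genes. The members and lists were chosen with earlier results of these data known. The alternatives were the fit without the trend, median centering, other filters and pseudocounts, a replicate block, leaving out each sample, RPM and TMM factors. The scripts were tested on simulated data. R 4.3.3 with limma 3.58.1 and edgeR 4.0.16 (TMM factors only), and Python 3.11.15 with scipy 1.17.1, pandas 2.3.3, numpy 2.4.6 and, for plots, matplotlib 3.10.9, were used.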

Additional observations from a re-analysis of the deposited data

How the results depend on the processing

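The log2 fold changes of Plaur, Mmp13, Plau, Mmp9, Mmp12 and Mmp19 kept their sign under all 10 alternatives to limma's trended fit that were run for AAV-Shisa3 against AAV-GFP. The calls of Plaur, Mmp13, Plau and Mmp9 changed under some of them, and Mmp12 and Mmp19 were called under none. Over all genes the fit called 250 higher and 460 lower (35.2% higher). It called 1 and 4 without the trend, 410 and 230 with each sample centered on its median (64.1% higher), and 0 and 0 with no filter, where 1118 and 2411 had an unadjusted p under 0.05. Leaving out 1 sample gave 0 to 32 higher and 0 to 10 lower. Of the 2 members higher, 0 were left without the trend, 0 with no filter and 0 to 1 after leaving out a sample. Of the 1 member lower, 0 was left without the trend, 0 after centering, 0 with no filter and 0 after leaving out a sample, while 2 were lower with at least 1 TPM in every sample, where Mmp9 was added (adjusted p = 0.0437) and 325 genes of all 10508 tested were higher and 617 lower. The adjusted p of Plaur was 0.0557 without the trend and 0.105 with no filter, that of Mmp13 0.0821 and 0.162, and that of Plau 0.0768 and 0.162. Centering moved the median of all genes from -0.10 to 0.01. After leaving out a sample, the log2 fold change ran from -0.035 to 0.30 for Mmp14, from -0.18 to 0.26 for Timp1 and from -0.34 to 0.061 for Timp2, so the directions of these 3 are not settled. The cause of these changes was not tested. A lone sample left in a group is assumed in these fits to vary like the other group.

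With the replicate number as a replicate block, 424 genes were higher and 851 lower, and 2 members were higher and 2 lower, again with Mmp9 (adjusted p = 0.0157 by limma). The labels do not say that a number marks a shared source, and the differences of replicate 1 minus replicate 2 correlated by 0.188 between the groups across 11218 genes, so the fit without the block was kept.

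For LPS, RPM gave 2377 genes higher and 7290 lower at 2 h, and 2304 and 7985 at 4 h, with 3 members lower at 4 h and 1 higher from 2 h to 4 h. The sign turned in RPM for Mmp12 at 2 h (0.28 to -0.38 on the log2 scale), Timp2 at 2 h (0.25 to -0.41) and Mmp19 at 4 h (0.35 to -0.47), and with median centering for Mmp9 at 4 h (-0.34 to 0.033). Median centering left 0 members lower at 2 h and raised those higher from 4 to 6, while over all genes it moved the counts from 3668 higher and 4406 lower to 4808 and 3454. From 2 h to 4 h a pseudocount of 5 gave 1830 higher and 1551 lower, and a mean of at least 5 gave 2110 higher. Over both experiments, 216 of the alternative values of single genes kept their direction and call or, for LPS, stayed within their counting interval, 17 lost a call, 2 gained one, 38 LPS values moved beyond that interval, and the 6 that changed sign in the AAV samples are those of Mmp14, Timp1 and Timp2. DESeq2 was not run, since the AAV values are not counts, and the LPS reads have no replicates for a count test. The 2 h library has the fewest reads and limits Mmp9 and Plau most.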

Other observations

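Several genes of the system stood at other levels in AAV-GFP transduced BMDMs than in untreated BMDMs. The tables come from separate experiments and were normalized separately. The 0 h levels use exon lengths of GENCODE M21, and the lengths behind the AAV levels are not given in the sources used here. A gene's level and percentile also depend on the length used. Levels per length are therefore given side by side without a test, each with its percentile among 45650 genes of the same library. Mmp14 was at 5.17 TPM (percentile 79.3) in the 0 h library and at 314 and 396 TPM (99 and 99.1) in AAV-GFP. Mmp13 was at 9.18 TPM (83.4) at 0 h and at 111 and 135 TPM (97.1 and 97.6) in AAV-GFP. Mmp9 was at 3.55 TPM (77.0) at 0 h and at 27.41 and 44.20 TPM (91.2 and 93.4) in AAV-GFP. Plaur was at 22.6 TPM (90.6) at 0 h and at 84.23 and 89.15 TPM (96.3 and 96.4) in AAV-GFP, and Mmp12 at 23.2 TPM (90.8) against 61.85 and 77.00 TPM (95.1 and 95.9). Mmp19 lay the other way, at 30.8 TPM (92.8) at 0 h and at 13.99 and 13.91 TPM (87.3 and 86.9) in AAV-GFP.

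Of 18 NF-κB and AP-1 reference genes of the LPS response, 16 were higher per length in both AAV-GFP samples than at 0 h, 1 was lower in both, and 1, Fosb, lay between them. Tnf was at 18.5 TPM at 0 h and at 204 and 226 TPM in AAV-GFP, and Il1b at 6.13 TPM against 76.3 and 130 TPM. The gene that was lower, Il12b, was at 0.943 TPM at 0 h and at 0.50 and 0.79 TPM in AAV-GFP. By percentile Il12b was higher in AAV-GFP (74.5 and 75.7 against 70.6), as was Fosb (68.6 and 65.5 against 61.5). The direction of these exceptions thus depends on the measure. Timp1 (9.0 TPM against 9.52 and 11.90 TPM), Timp2 (99 TPM against 92.01 and 69.59 TPM) and Plau (32.9 TPM against 30.77 and 23.29 TPM) were at closer levels in both. Virus, culture time, library, gene lengths used and processing cannot be told apart between these experiments. At 0 h the ratio of Mmp14 to Timp2 per length was 0.0522, and in AAV-GFP it was 3.42 and 5.69, within the range of 1.83 at 2 h to 8.14 at 4 h of LPS.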
